A study of Mus musculus with 24 samples.

Results

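The arrays described here compare the ventrobasal thalamus (VB) of embryonically enucleated mice with that of control mice at P4, the fourth postnatal day. They were chosen by their sample titles alone, as the 3 arrays titled P4-VB-BE and the 3 titled P4-VB-CTR, and they make up 6 of the 24 arrays of the series. The series compared the VB and the dorsal lateral geniculate nucleus (dLGN) of enucleated (embBE) and non-enucleated mice at P0 and at P4 to find out whether the loss of visual input changes gene expression in a thalamic nucleus of another sense. All mice were wild type on a C57BL/6 background. In the embBE group both eyes had been removed in utero, before retinal axons reach the thalamus, and the control group kept its eyes. Whether an array holds tissue of 1 animal or of several is not stated. The nucleus was cut by hand from vibratome slices, and its RNA was amplified in a pair of rounds before hybridization to an Affymetrix mouse genome array. Each title ends in a pair of numbers. The first numbers 24, 36 and 40 each hold 1 embBE and 1 control array (embBE 24_4, 36_2 and 40_3, control 24_2, 36_3 and 40_1), and what the numbers stand for is not stated. Nothing states that arrays are independent litters, so p-values measure the spread between these arrays only. The values are log2 signals of 1 probe set for each of 18194 genes, the one with the highest mean over the 24 arrays.

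The VB holds the ventral posteromedial nucleus, which relays touch from the whiskers through the brainstem to the barrels of the primary somatosensory cortex. In mice the barrels take shape in the first days after birth, as the axons of the relay neurons gather in layer 4, and P4 lies within that time. The relay neurons release glutamate loaded by the transporter of Slc17a6, receive inhibition mainly from the neighbouring reticular nucleus, and take up serotonin through the transporter of Slc6a4 for a short period after birth.

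Several genes of relay neurons had high signals in the labelled tissue. Slc17a6 lay between 11.98 and 13.32 on the log2 scale on the 6 arrays, Cck between 12.96 and 13.45 and Tcf7l2, a transcription factor of the developing thalamus, between 12.21 and 12.73. Neurod6, a marker of cortical excitatory neurons, lay between 2.60 and 2.97. In bulk tissue a change in the number of cells of a type and a change in RNA per cell cannot be told apart.

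A pair of arrays stood apart, and both carry the number 36. Control 36_3 had the narrowest spread of signals, with an SD of 2.26 over all probe sets against at least 2.38 on each of the other 5. For actin its 3′ signal exceeded its 5′ signal, a sign of RNA quality, by 3.14 on the log2 scale, against 1.95 to 2.30 on the other 5. For Gapdh the same gap did not set it apart, at 3.47 against 3.03 to 3.49. In 187 genes it lay more than 1 log2 unit below all the other 5 arrays, and in 12 genes as far above. EmbBE 36_2 was the only one of the 6 with a high signal of the Y-linked gene Eif2s3y (8.97 against 3.46 to 3.86) and a low signal of Xist (6.82 against 10.02 to 11.01). The dLGN array with the same pair of numbers, embBE 36_2, had Eif2s3y at 9.32. The other 5 dLGN arrays at P4 had it at 3.67 to 3.78. EmbBE 36_2 lay more than 1 log2 unit above all other VB arrays in 22 genes. Results that rest on these arrays are given with and without them.

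At P4 the genes called in the embBE VB included those of the secreted synaptic organizers Cbln4 and Cbln2 (higher), which kept the call in all 6 fits that left out 1 array. Tac1, a neuropeptide precursor gene (lower), kept it in 5 of the 6, as did Osbpl3, Rasgrp1, Zfp667 and Rpl39l. With a threshold of a fold change of at least 1.5 and an unadjusted p under 0.05 in limma, 29 genes were called, which is 0.159% of those tested. Of these, 26 were higher in embBE (0.143% of all genes) and 3 lower (0.0165%). No gene had a Benjamini-Hochberg adjusted p under 0.05 in limma, where the lowest was 0.751 and 724 genes had an unadjusted p under 0.05. The methods' t-test on the 6 arrays also gave 0 genes after adjustment and 827 before it, and its fold and p threshold called 6. Each of the 29 genes had an adjusted p of 0.751 in limma, so the word called below refers to the unadjusted threshold only. The small p-values ran more often toward lower signals in embBE (484 genes, 2.66%) than toward higher signals (240 genes, 1.32%), whereas the called genes were mostly higher. The 484 and 240 include dim genes. With the dimmer genes left out, 299 of 12129 genes had an unadjusted limma p under 0.05, not split by direction. The median log2 fold change was then 0.037, against -0.020 over all genes. With fold changes from means on the linear scale, 24 of 31 called genes were higher.

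In 20 of the 29 called genes every embBE array lay on 1 side of every control array. Among all genes this held for 4.33% with embBE higher and for 7.83% with embBE lower. In 24 of the 29, the embBE array exceeded or fell short of its control in the same direction within each of the 3 label numbers, and among all genes this was so for 11.7% (higher) and 17.4% (lower). Control 36_3 was the control array farthest from the embBE arrays in 26 of the 29 called genes, control 40_1 in 2 and control 24_2 in 1. Of the 28 called genes with a gene name, 25 were higher, and 24 of those had their lowest signal of all 6 arrays on 36_3.

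**Figure D1:**
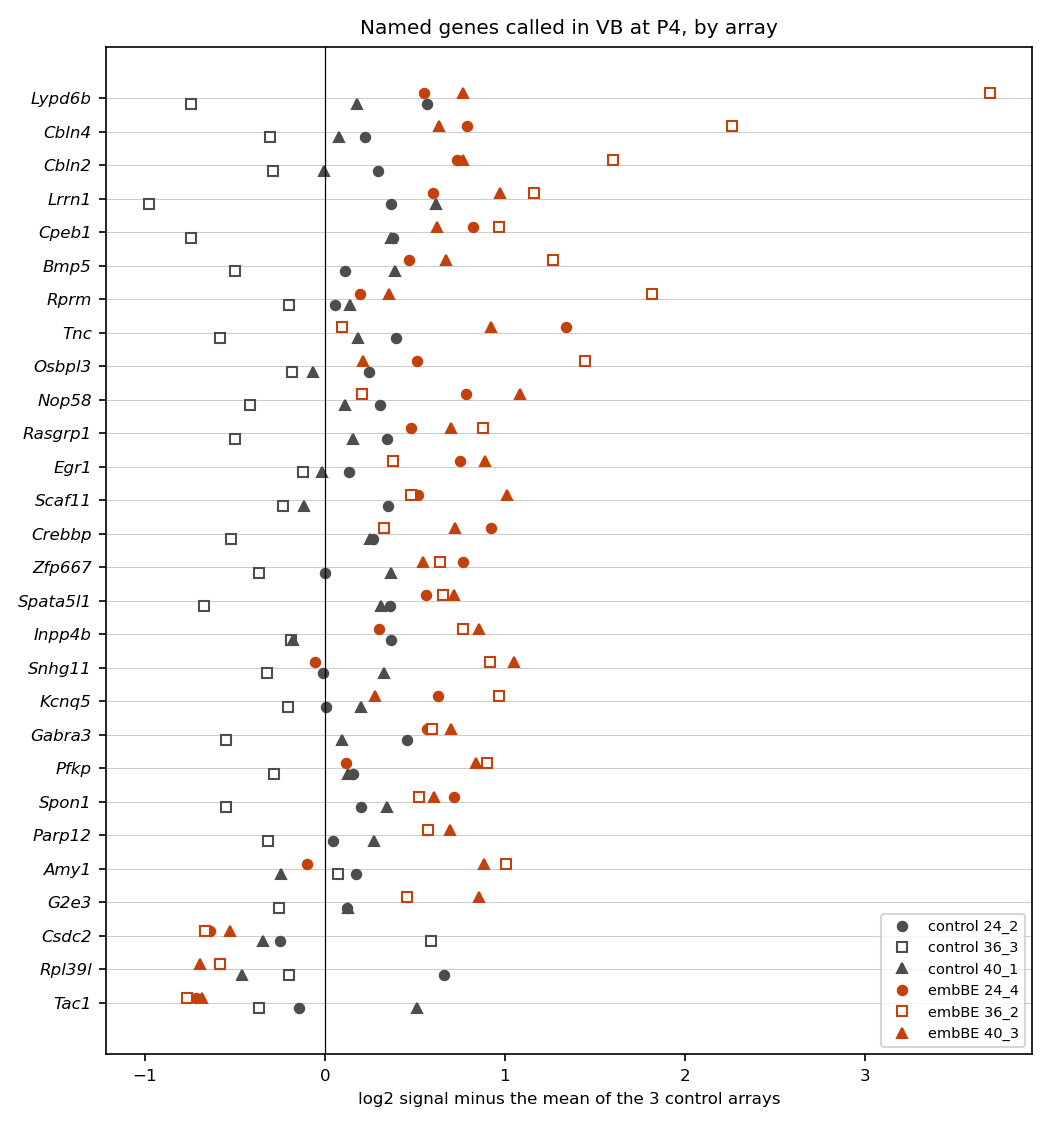
Log2 signal of the 28 named genes called in VB at P4, on each of the 6 arrays, minus the mean of the 3 control arrays (x axis, log2 units), with embBE arrays in orange, control arrays in grey and the arrays of number 36 as open squares. The open grey squares (control 36_3) lie lowest in 24 of the 25 genes called higher, and the open orange square of Lypd6b (embBE 36_2, at a signal of 10.87) lies farthest to the right.

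The cerebellins are secreted proteins of the C1q family that bind neurexins on axons and help to organize synapses. Cbln4 was at 7.89, 7.37 and 7.75 on control 24_2, 36_3 and 40_1 and at 8.46, 9.93 and 8.30 on embBE 24_4, 36_2 and 40_3. The groups did not overlap, and embBE 36_2 was the highest by 1.47. The log2 fold change was 1.23 (SE 0.38), a 2.34-fold rise. Cbln2 was at 8.90, 8.32 and 8.60 in the controls and at 9.34, 10.20 and 9.37 in embBE, again without overlap. It rose by 1.03 (SE 0.29), or 2.05-fold. These were the only named genes that kept the call whichever of the 6 arrays was left out. Without control 36_3 the rise was 1.08 for Cbln4 and 0.89 for Cbln2, and without embBE 36_2 it was 0.71 and 0.75. With both arrays of number 36 left out, the values were 0.56 for Cbln4 and 0.61 for Cbln2, and neither was called.

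Among the other measured members of the family and its partners, none was called. Cbln1 was at 10.20, 10.36 and 9.92 in the controls and at 9.75, 12.14 and 9.70 in embBE. Only embBE 36_2 lay above the controls, the other embBE arrays lay below them, and the mean difference was 0.37 (SE 0.57). Cbln3 differed by -0.32 (SE 0.15). The neurexins Nrxn2 (-0.15, SE 0.18) and Nrxn3 (0.07, SE 0.19) and the delta glutamate receptor gene Grid1 (0.07, SE 0.12) had no unadjusted p under 0.05. Over the 7 measured members the median was 0.07, beside -0.02 over all genes.

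Tac1 encodes the precursor of the peptides substance P and neurokinin A. Its signals in the controls were 9.06, 8.84 and 9.72, and those in embBE were 8.49, 8.44 and 8.52. The groups did not overlap, and the embBE arrays lay within 0.1 of each other (SD 0.04 against 0.46 in the controls). Tac1 fell by 0.72 (SE 0.19) on the log2 scale. The fold change was -0.90 without control 36_3, -0.70 without embBE 36_2 and -0.88 without both, called in each. Without control 40_1, the highest control, the difference was -0.47, under 1.5-fold, and Tac1 was no longer called. Its only other probe set, with a lower signal, gave -0.28. Of the 20 measured neuropeptide precursors, 6 lay above 0, Tac1 was the only one called, and the median was -0.12 (-0.05 without 36_3). Among all genes 45.7% lay above 0, the share to set beside such counts here and below.

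Tac1 also stands on a list of habenula genes, a region that lies close to the thalamus. Of the 12 measured habenula genes 2 lay above 0 (median -0.16, and -0.07 without 36_3), and the nicotinic receptor subunit Chrnb3 was the other one with a p under 0.05 (-0.25, SE 0.10). Chrnb3 had low signals, between 4.88 and 5.33. The defining markers Pou4f1 (5.85 to 6.34), Gpr151 (5.19 to 5.52) and Tac2 (3.96 to 4.23) overlapped between the groups. The mean signal of the list, Tac1 included, ran from 5.97 to 6.09 in the controls and from 5.83 to 5.86 in embBE. No mean was taken without Tac1, and the part of habenula tissue in the Tac1 difference was not tested. The tachykinin receptor genes, looked up after Tac1 was seen, did not pass the threshold: Tacr1 was at -0.12 and Tacr3 at -0.24.

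The promoters of Cbln4 and Tac1 are shown because these genes moved in opposite directions and kept their calls without control 36_3. Each is the run of 250 bases before the start of the RefSeq gene on GRCm38.p6, 5′ to 3′ along the gene, at chr2:172043467-172043716 on the minus strand for Cbln4 and at chr6:7554811-7555060 on the plus strand for Tac1. The capitals mark the half-site of the cyclic AMP response element (TGACG, or CGTCA on the other strand) and the E-box CACGTG, which reads the same on both strands.
Cbln4: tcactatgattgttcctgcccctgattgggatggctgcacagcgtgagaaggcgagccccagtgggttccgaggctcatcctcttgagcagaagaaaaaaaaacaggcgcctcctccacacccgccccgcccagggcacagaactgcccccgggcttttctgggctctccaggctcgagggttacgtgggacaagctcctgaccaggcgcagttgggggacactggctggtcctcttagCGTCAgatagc
Tac1: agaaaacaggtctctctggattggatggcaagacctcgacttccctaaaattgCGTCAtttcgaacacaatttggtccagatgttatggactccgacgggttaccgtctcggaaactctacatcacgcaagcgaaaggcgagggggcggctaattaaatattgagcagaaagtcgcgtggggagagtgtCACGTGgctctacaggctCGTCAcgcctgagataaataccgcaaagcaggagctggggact
Both strands were searched. Cbln4 held 1 half-site, at position -11 from the start, and Tac1 held 2, at -197 and -43, and 1 E-box, at -61. No marked motif overlaps another. The half-site was present in 22.7% of the 18110 windows of measured genes and the E-box in 7.38%. By gene, 8 of the 24 called genes with a window held the half-site (33.3%, against 25.9% of all 14453 genes with a window), and 1 held the E-box (4.17%, against 8.73%). A match is a string of letters and no measured binding.

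The largest rise among the called genes was that of Lypd6b, a membrane-anchored protein of the Ly6 family known to act on nicotinic receptors. Its signals were 7.74, 6.43 and 7.35 in the controls and 7.72, 10.87 and 7.94 in embBE. The groups overlapped, and embBE 36_2 alone lay 2.92 above the next array. The log2 fold change of 1.67 (SE 0.68) became 0.66 without 36_2. Rprm, which stops the cell cycle downstream of p53, was at 9.59, 9.33 and 9.67 in the controls and at 9.73, 11.35 and 9.89 in embBE. Its groups did not overlap, and embBE 36_2 was again the highest array. The log2 fold change of Rprm was 0.79 (SE 0.34) with embBE 36_2 and 0.27 without it.

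Cbln4, Lypd6b and Rprm were the called genes among the 22 that stood more than 1 log2 unit above all other arrays on embBE 36_2. The rest, chosen here after their values were seen, included Lypd6, a relative of Lypd6b, at 10.36 against at most 6.64, Inhba, a subunit of activin, at 10.10 against at most 7.20, and the calcium-binding protein Caln1 at 12.02 against at most 10.26. On the dLGN array with the same numbers, 2 of the 22 stood out as far, Eif2s3y and the serotonin receptor gene Htr2c. Lypd6 was at 6.44 on that dLGN array and between 6.06 and 6.46 on the other 5 at P4. Whether the sex-linked signals, the dissection or another property of embBE 36_2 had a part in these levels was not tested, since 1 array carries all of them.

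The lists of activity-regulated genes and of CREB and its coactivators held 1 called gene each, Egr1 and Crebbp. Egr1, an immediate-early zinc finger factor, was at 8.22, 7.96 and 8.07 in the controls and at 8.84, 8.46 and 8.97 in embBE. All embBE arrays lay above all controls, and Egr1 rose by 0.68 (SE 0.29). The call held in 2 of the 6 fits with an array left out. Without control 36_3 the difference was 0.62, and with both arrays of number 36 left out it was 0.76. Crebbp, the histone acetyltransferase that serves as coactivator of CREB, was at 9.88, 9.10 and 9.87 in the controls and at 10.54, 9.95 and 10.34 in embBE. It rose by 0.66 (SE 0.22), and the difference was 0.40 without 36_3. The other 3 probe sets of Crebbp lay between -0.07 and 0.14 with no p under 0.05.

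The activity-regulated genes lay on both sides of 0. Of the 32 measured members 17 lay above 0 and the median was 0.06 (0.02 without 36_3). Egr1 was the only one called. Jun, a subunit of AP-1, was higher at a smaller size (0.42, SE 0.13) with no overlap between groups, and Fosb, another AP-1 subunit, was lower (-0.28, SE 0.11), also with no overlap. The signals of Fosb were low, between 4.74 and 5.17. Among 17 genes of CREB and its coactivators, 11 lay above 0 (median 0.07), and Crebbp was the only one with a p under 0.05.

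Rasgrp1 activates Ras when calcium and diacylglycerol rise. It was at 7.27, 6.43 and 7.09 in the controls and at 7.41, 7.81 and 7.63 in embBE, without overlap, and rose by 0.68 (SE 0.19). Control 36_3 was the only array whose removal ended the call (0.43). The other 3 probe sets of Rasgrp1, of lower signal, lay between -0.17 and 0.00. Of the 17 measured Ras activators and inhibitors 12 lay above 0, with a median of 0.12 (0.03 without 36_3), and Rasgrp4 was lower (-0.39, SE 0.15).

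Tnc, the matrix glycoprotein tenascin C, was at 7.31, 6.34 and 7.10 in the controls and at 8.26, 7.02 and 7.84 in embBE. The arrays of number 36 were the lowest of each side, so the groups overlapped, but within each number embBE lay above its control by 0.95, 0.68 and 0.74. Tnc rose by 0.79 (SE 0.32). The rise was 0.84 without both arrays of number 36, and the difference was 0.50 without control 36_3 alone.

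Bmp5, a ligand of the bone morphogenetic protein family, was at 7.60, 6.996 and 7.88 in the controls and at 7.96, 8.76 and 8.16 in embBE, without overlap. It rose by 0.80 (SE 0.25), and without 36_3 the difference of 0.55 was under the fold threshold. Of the 27 measured genes of the BMP pathway, Bmp5 was the only one with a p under 0.05, and the median of the list was 0.04. Spon1, the matrix protein F-spondin, rose by 0.62 (SE 0.25), and Lrrn1, a leucine-rich repeat protein of the neuronal membrane, by 0.91 (SE 0.41). Control 36_3 was the lowest array in both (8.43 in Spon1 and 7.11 in Lrrn1), and neither was called without it.

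Ion channel and receptor genes were called in single members. Kcnq5, a subunit of the potassium channels that carry the M-current, was at 6.67, 6.46 and 6.87 in the controls and at 7.30, 7.64 and 6.94 in embBE, without overlap. It rose by 0.62 (SE 0.21), and another probe set of lower signal rose by 0.71, while the dimmest one was at -0.10. Without 36_3 Kcnq5 was at 0.52. Kcna1, a delayed rectifier subunit (0.54, SE 0.17), and Kcnn1, a calcium-activated channel of small conductance (0.34, SE 0.12), were higher with no overlap but under 1.5-fold. With Kcnq5 they were the only ones of 30 potassium channel genes with an unadjusted p under 0.05, none was lower at that level, and the median of the 30 was 0.05. Gabra3, the alpha 3 subunit of the GABA-A receptor, was at 8.49, 7.49 and 8.13 in the controls and at 8.60, 8.63 and 8.74 in embBE. It rose by 0.62 (SE 0.28), a call that held in 1 of the 6 fits with an array left out. Of 18 GABA and glycine receptor and chloride transporter genes 14 lay above 0, with a median of 0.15 (0.09 without 36_3).

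Cpeb1, which binds the cytoplasmic polyadenylation element of mRNAs, rose by 0.80 (SE 0.35), with control 36_3 at 5.20 and the other controls at 6.32 and 6.31 against 6.57 to 6.91 in embBE. Nop58, a core protein of small nucleolar RNA particles, rose by 0.69 (SE 0.28). It was at 0.72 and called without number 36, and at 0.48 and not called without control 36_3 alone. It also lost the call without embBE 24_4 and without embBE 40_3. Scaf11, a splicing factor with an SR domain, rose by 0.67 (SE 0.23), and its other 3 probe sets lay between 0.07 and 0.19. Of the 24 measured splicing factors with SR domains 19 lay above 0. Their median of 0.17 was the highest of the lists, and it was 0.09 without 36_3.

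Rpl39l, a paralogue of a ribosomal protein, was at 6.04, 5.17 and 4.91 in the controls and at 4.79, 4.79 and 4.68 in embBE. The groups did not overlap, and Rpl39l fell by 0.62 (SE 0.21). The fold change was -0.72 without 36_3 and -0.74 without number 36, both called, but without control 24_2, the highest control, the difference was -0.29 and the call was lost. Csdc2, an RNA-binding protein with a cold shock domain, was at 10.61, 11.45 and 10.52 in the controls and at 10.22, 10.19 and 10.34 in embBE. It fell by 0.61 (SE 0.24), and the difference was -0.32 without 36_3.

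The called genes also included 1 unnamed clone, C630043F03Rik, at 0.79 (SE 0.32), whose other probe set was at 0.09. The remaining ones rose by 0.59 to 0.72 on the log2 scale. They were Osbpl3, a lipid-binding protein of the oxysterol family, the lipid phosphatase gene Inpp4b, the glycolytic enzyme gene Pfkp, the long non-coding RNA Snhg11, the ADP-ribosyltransferase gene Parp12, the ubiquitin ligase gene G2e3, the zinc finger gene Zfp667, the ATPase gene Spata5l1 and the amylase gene Amy1. Zfp667 (0.65, SE 0.18) lost its call without 36_3 and in no other fit with an array left out. Pfkp was at 9.02, 8.58 and 8.99 in the controls and 8.98, 9.77 and 9.70 in embBE, and another probe set rose by 0.84 while the dimmest one was at -0.23. Of the 29 called genes 17 had other probe sets. Of those 32 other probe sets 23 had the sign of the main one and 2 (Kcnq5 and Pfkp) were called.

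The threshold cut through a continuous range of values. Just inside it lay G2e3 (0.59), Amy1 (0.60), Parp12 (0.61), Spon1 (0.62) and Pfkp (0.62) on the higher side, and Csdc2 (-0.61), Rpl39l (-0.62) and Tac1 (-0.72) on the lower side. Just outside it, with an unadjusted p under 0.05, lay Xrn2 (0.58), Atp6v1a (0.58), Rcc1l (0.58), Insyn2b (0.58) and Bmper (0.57), and Pth2r (-0.57), Cryab (-0.56), Rbm45 (-0.55), Ripply2 (-0.54) and Mybpc1 (-0.54).

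Differences within a label number were far wider in number 36 than in the others. Their SD over all genes was 0.47 in number 36, 0.19 in number 24 and 0.21 in number 40. In number 36 embBE was at least 1.5-fold above control in 2423 genes and below it in 864. The counts were 77 and 102 in number 24, and 175 and 79 in number 40. The genes with all 3 differences of at least 1.5-fold in 1 direction were 2, or 0.011% of those tested. They were Tnc and Gad1, the enzyme that makes GABA, which was at 4.97, 5.12 and 6.09 in the controls and at 5.69, 5.98 and 7.39 in embBE. The arrays of number 40 were the highest of each side in Gad1, and the groups overlapped (0.96, SE 1.10).

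**Figure D2:**
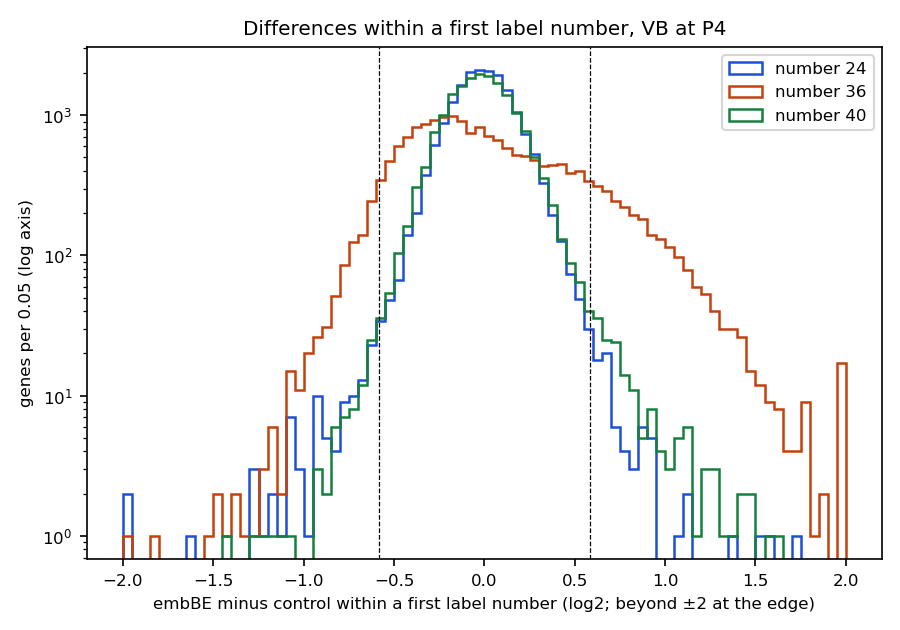
Distribution over 18194 genes of the difference between the embBE and the control array that share a first label number (x axis, log2; y axis, genes per bin of 0.05, log axis), with dashed lines at 1.5-fold and values beyond 2 drawn at the edge. The curve of number 36 is wider (SD 0.47) than those of numbers 24 (0.19) and 40 (0.21) and leans to the right, with 2423 genes at least 1.5-fold higher.

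Genes other than unnamed clones were ranked by the smallest of their 3 differences within the numbers, which reached 0.72 upward and 0.40 downward. The other differences of a gene could be larger, as in Cbln4 (0.57, 2.57 and 0.56 in numbers 24, 36 and 40). Of the 10 genes with the largest values of their smallest difference upward, 6 were called (Cbln4, Cbln2, Tnc, Egr1, Nop58 and Crebbp), and the others were Gad1, Nrsn1, Sec24a and Smc6. Sec24a, a coat protein of transport vesicles that leave the endoplasmic reticulum, was at 6.10, 6.26 and 6.25 in the controls and at 6.63, 6.69 and 6.73 in embBE. Each embBE array exceeded its control by 0.43 to 0.53, and the difference of 0.48 (SE 0.10) was under 1.5-fold. Smc6, a subunit of a chromosome maintenance complex, was higher by 0.55 (SE 0.16).

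In the 10 genes with the largest values of their smallest difference downward all embBE arrays lay below all controls, and Tac1 was the only one called. Sox8, a transcription factor of glia and their precursors, was at 6.36, 6.32 and 6.38 in the controls and at 5.86, 6.00 and 5.98 in embBE (-0.41, SE 0.09). Efnb3, an ephrin that sits in the membrane, was lower by a similar amount (-0.42, SE 0.18). The energy and lysosome genes Atp5e (-0.52, SE 0.23) and Lamtor1 (-0.41, SE 0.14) lay in the same range. The remaining ones were Septin1 (-0.43, SE 0.11), Lpcat2b (-0.45, SE 0.11), Klrg2 (-0.37, SE 0.11), Ubl4b (-0.39, SE 0.12) and Klhl41 (-0.34, SE 0.09). Signals were low in Lpcat2b (3.96 to 4.65) and lowest in Klhl41 (2.73 to 3.23).

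Rorb, a nuclear receptor of the VB relay neurons that the study followed further, was not called at P4. By in situ hybridization the study reported stronger Rorb in the ventral posteromedial nucleus of embBE mice at P0 and P4, mainly in its dorsolateral part. That is another measure than the array signal of the whole dissected tissue. On the arrays Rorb was at 9.06, 8.49 and 8.98 in the controls and at 9.41, 9.46 and 8.80 in embBE. EmbBE 40_3 lay below 2 of the controls, and the difference in Rorb was 0.38 (SE 0.19), beside 0.44 (SE 0.19) at P0. The study's own microarray analysis also gave a significant rise of Rorb at P0, and a larger one than found here. The values here are those of 1 probe set, and which probe set the study used is not stated. Its relative Rora differed by 0.20 (SE 0.24). Slc17a6 was at 12.99, 11.98 and 12.66 in the controls and at 13.12, 12.87 and 13.32 in embBE (0.56, SE 0.27), and the groups overlapped. Slc6a4 (0.18, SE 0.24), Cck (0.12, SE 0.20), Tcf7l2 (-0.05, SE 0.19), Gbx2 (-0.37, SE 0.32) and Lhx2 (-0.28, SE 0.28) had no unadjusted p under 0.05. Of the 19 measured genes with a role in barrel formation 16 lay above 0 (84.2%, against 45.7% of all genes), with a median of 0.05 and no p under 0.05. The 45.7% includes dim genes, while the mean signal of this list lay between 9.50 and 9.73 on the arrays. Its median difference was 0.06 within number 24, 0.30 within number 36 and 0.08 within number 40. Of 21 genes of relay identity 15 lay above 0, with a median of 0.12 (0.08 without 36_3) and no p under 0.05.

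Few markers of other cell types had an unadjusted p under 0.05. In the oligodendrocyte lineage 4 of 17 genes lay above 0, with a median of -0.05 (-0.08 without 36_3), and Olig2 was lower without overlap (-0.25, SE 0.11). The abundant lineage genes Olig1 (0.22, SE 0.24) and Pdgfra (0.16, SE 0.15) had no p under 0.05. Among 13 microglia genes 8 lay above 0 (median 0.05), and P2ry12, a purine receptor of resting microglia, was higher without overlap (0.42, SE 0.15). The signals of P2ry12 were low, between 4.81 and 5.60. No gene of the astrocyte, blood vessel, blood cell, GABAergic or cortical lists had a p under 0.05. In the list of choroid plexus and ependyma Ccdc153 was lower (-0.45, SE 0.12), at low signals between 4.87 and 5.63.

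Across the 41 lists, 27 held no called gene and none held more than 2, and 20 held no gene with a p under 0.05. The medians ran from -0.16 (habenula) to 0.17 (splicing factors with SR domains), beside -0.02 over all genes, of which 45.7% lay above 0. In 30 of the 41 lists the median lay nearer to 0 once control 36_3 was left out. The cholesterol and fatty acid synthesis list had 17 of 25 genes above 0 and a median of 0.12, but within number 36 the median difference was 0.51, within number 24 -0.04 and within number 40 0.07. Ribosomal proteins (median -0.05) and oxidative phosphorylation subunits (-0.02) had no gene with a p under 0.05. Single members elsewhere were Fxr1, an RNA-binding relative of the fragile X protein (0.38, SE 0.18), Clock (0.37, SE 0.14), Pcdh17 (0.49, SE 0.22) and Ephb6 (0.43, SE 0.16) on the higher side. The receptor gene Cntfr (-0.53, SE 0.20) and the growth factor gene Gdnf (-0.30, SE 0.13) lay on the lower side. Gdnf had low signals, between 4.66 and 5.17.

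**Figure D3:**
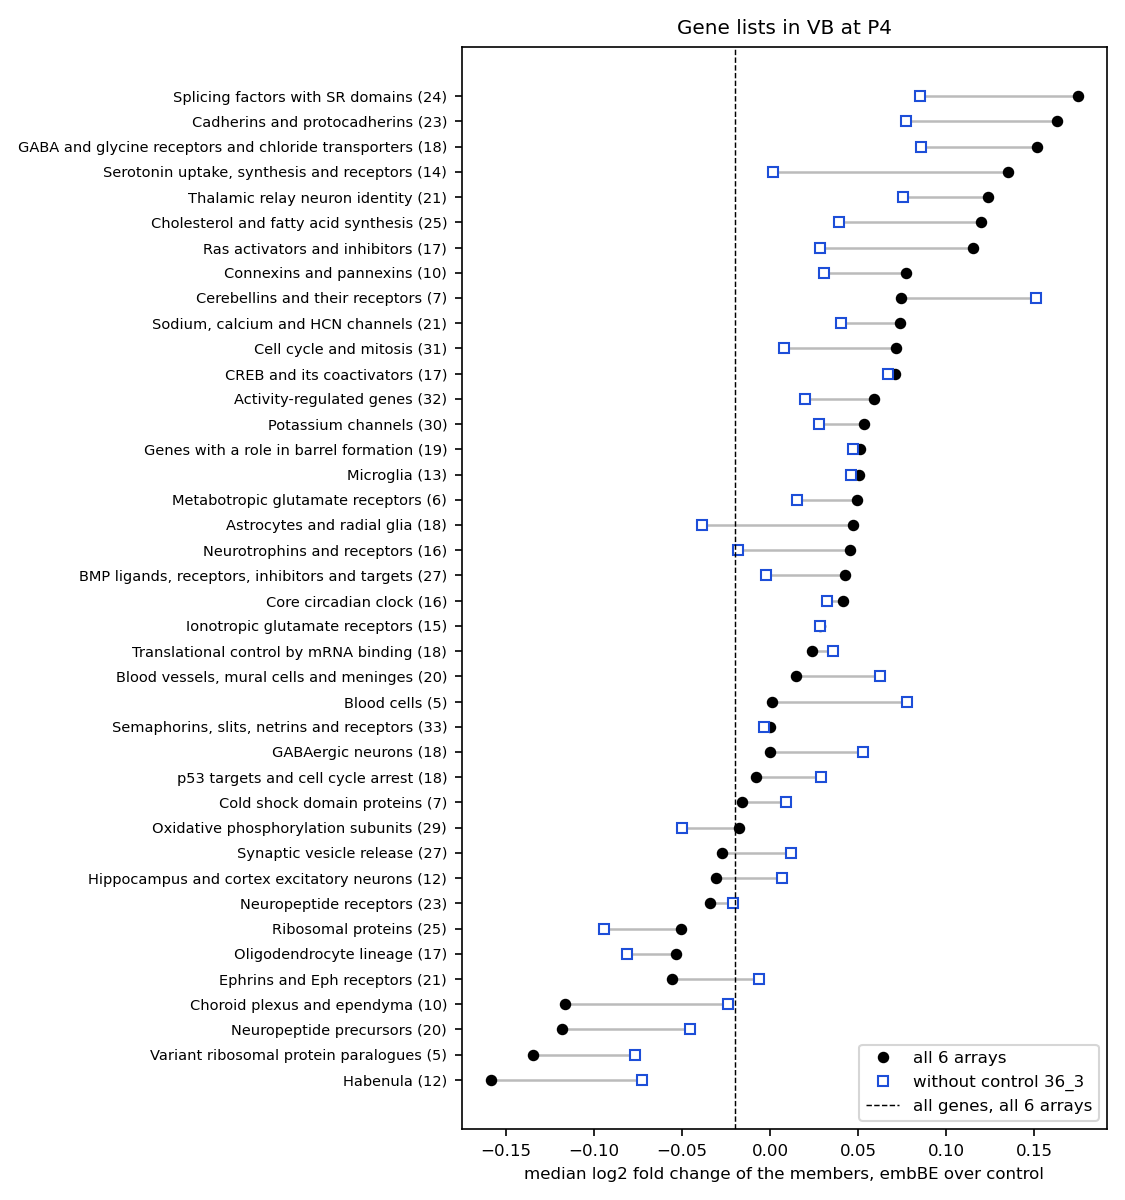
Median log2 fold change (embBE over control, x axis) of 40 gene lists in VB at P4, with the number of measured members in brackets, for all 6 arrays (black) and without control 36_3 (blue, open), and a dashed line at the median of all genes (-0.02). The splicing factors with SR domains move from 0.17 to 0.09 and the habenula list from -0.16 to -0.07 when 36_3 is left out.

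Leaving out control 36_3 changed most of the list of called genes. The count fell from 29 to 12 (0.066% of genes), of which 8 were higher and 4 lower, and 5 of the 12 were also called with all arrays (Cbln4, Cbln2, Osbpl3, Rpl39l and Tac1). The others, named here after their values were seen, were Gjc1, Sema4c, Washc4, Rsrc2 and Miga1 (higher) and Mybpc1 and Pth2r (lower). Leaving out embBE 36_2 gave 55 called genes (0.302%). With both arrays of number 36 left out, 41 genes were called (0.225%), 27 higher and 14 lower, and 5 of them were also called with all arrays (Tnc, Nop58, Scaf11, Rpl39l and Tac1). Tac1 and Rpl39l were the 2 genes called with all arrays, without 36_3 and without number 36. Without number 36 the largest rise, chosen here after its value was seen, was in the cadherin gene Cdh1 (1.48), which embBE 36_2 held at 3.60, below all 3 controls (4.49 to 4.81), while the other embBE arrays had 6.22 and 6.04. All 28 named genes kept the sign of their fold change in every fit with an array left out.

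**Figure D4:**
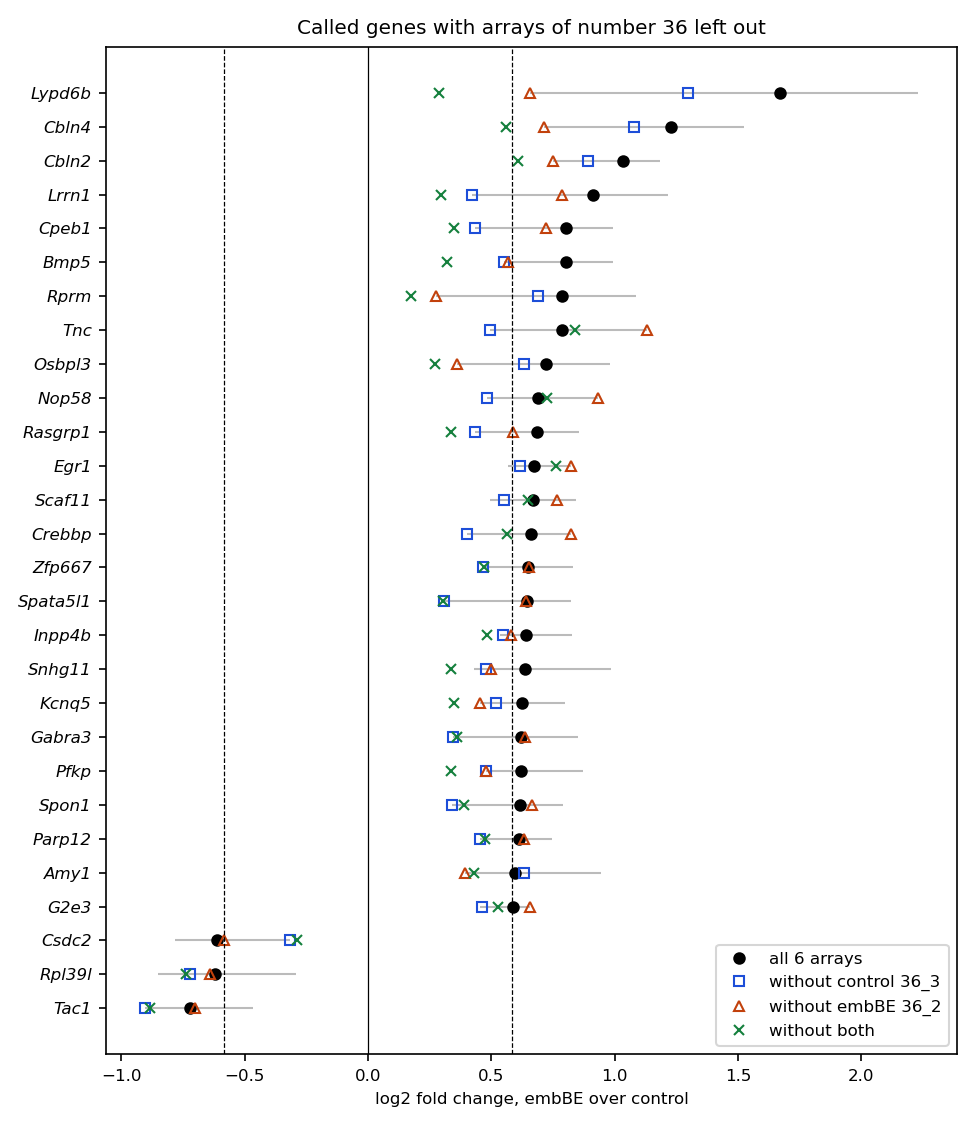
Log2 fold change (x axis) of the 28 named called genes with all 6 arrays (black), without control 36_3 (blue squares), without embBE 36_2 (orange triangles) and without both (green crosses), with grey lines over the range of the fits that each leave out 1 array and dashed lines at 1.5-fold. Tac1 moves from -0.72 to -0.90, -0.70 and -0.88, and Lypd6b from 1.67 to 1.30, 0.66 and 0.29.

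The embBE effect in the same nucleus at P0 and in the dLGN at P4 was set beside that in VB at P4. At P0 132 genes were called in VB (0.726%), and G2e3 was the only named one of the 28 among them in the same direction, at 0.77 (SE 0.20) against 0.59 at P4. In the dLGN at P4 36 genes were called (0.198%), and Cbln2 was the only one of the 29 called there in the same direction (0.68, SE 0.31). The sign at P4 in VB was also that at P0 in VB for 21 of the 29 genes and that in the dLGN at P4 for 20. The matching share over all genes was not counted, so these counts do not show a repeated effect. At P0, VB control 35_1 also had a narrow spread (SD 2.22 against at least 2.33 on the other P0 VB arrays). Its actin gap was 4.29, against 2.20 to 2.98 on those arrays. The part of control 35_1 in the shared signs was not tested.

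The difference between ages was tested as an interaction and called at the same threshold in 63 genes (0.346%), and no adjusted p was under 0.05 (294 genes had an unadjusted p under 0.05). Of the 29 genes called at P4, 7 were among the 63. The P4 difference that picked the 29 is part of this contrast, so the count cannot be set against the share over all genes. The effect on Cbln4 was -0.38 at P0 and 1.23 at P4, a difference of 1.60 (SE 0.54) that kept its call in every fit that left out 1 of the 12 VB arrays. Cbln2 went from -0.05 to 1.03 (difference 1.09, SE 0.41), and was no longer called in 3 of the 12 such fits. Rprm (1.31) kept its call in all 12 such fits too, although its P4 effect alone was not called without embBE 36_2. Lypd6b (2.23), Osbpl3 (0.90), Rasgrp1 (0.70) and Tac1 (-0.63) were the other ones. Without embBE 36_2 the differences were 0.81 for Cbln2, 1.22 for Lypd6b, 0.54 for Osbpl3, 0.60 for Rasgrp1 and -0.61 for Tac1, none of them called. Each also lost its call in other fits that left out 1 array, Tac1 in 8 of the 12 in all. Among all genes the largest differences between ages were those of the sex-linked Eif2s3y (5.26) and Xist (-3.95). At P0 Eif2s3y lay between 8.80 and 9.02 on all 3 control arrays and 1 of the 3 embBE arrays of VB, and at P4 it was high on embBE 36_2 only. The part of these sex-linked differences in the other differences between ages was not tested.

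The difference between nuclei at P4 was called in 87 genes (0.478%), with the lowest adjusted p at 0.469 and 374 unadjusted p under 0.05, and 3 of the 29 were among them. The VB difference that picked the 29 is part of this contrast too, so the same limit holds. The clearest of the 3 was Osbpl3, at 6.59, 6.17 and 6.29 in the VB controls and at 6.86, 7.80 and 6.56 in the embBE VB. Its groups overlapped in VB. The rise in VB was 0.36 without embBE 36_2 and 0.27 without number 36, called in neither. Its other probe sets, of lower signal, were at 0.45 and -0.07 in VB and not called. With all arrays Osbpl3 was higher in VB by 0.72 and lower in the dLGN by 0.98 (-0.98, SE 0.24). The difference between nuclei of 1.70 (SE 0.38) was called in every fit that left out 1 of the 12 P4 arrays. Tac1 differed by -0.84 (SE 0.38), as its effect in the dLGN was 0.12, and Rasgrp1 by 0.68 (SE 0.29). For Cbln4 the dLGN effect was -0.01 and the difference of 1.24 (SE 0.61) was not called, and for Cbln2 the difference was 0.35 (SE 0.46). Other large differences between nuclei came from genes that were not called in VB at P4, such as Moxd1 (1.52), Chst2 (1.27) and Dusp4 (1.21), and Tgfbi (-1.29) and Tgm2 (-1.03).

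**Figure D5:**
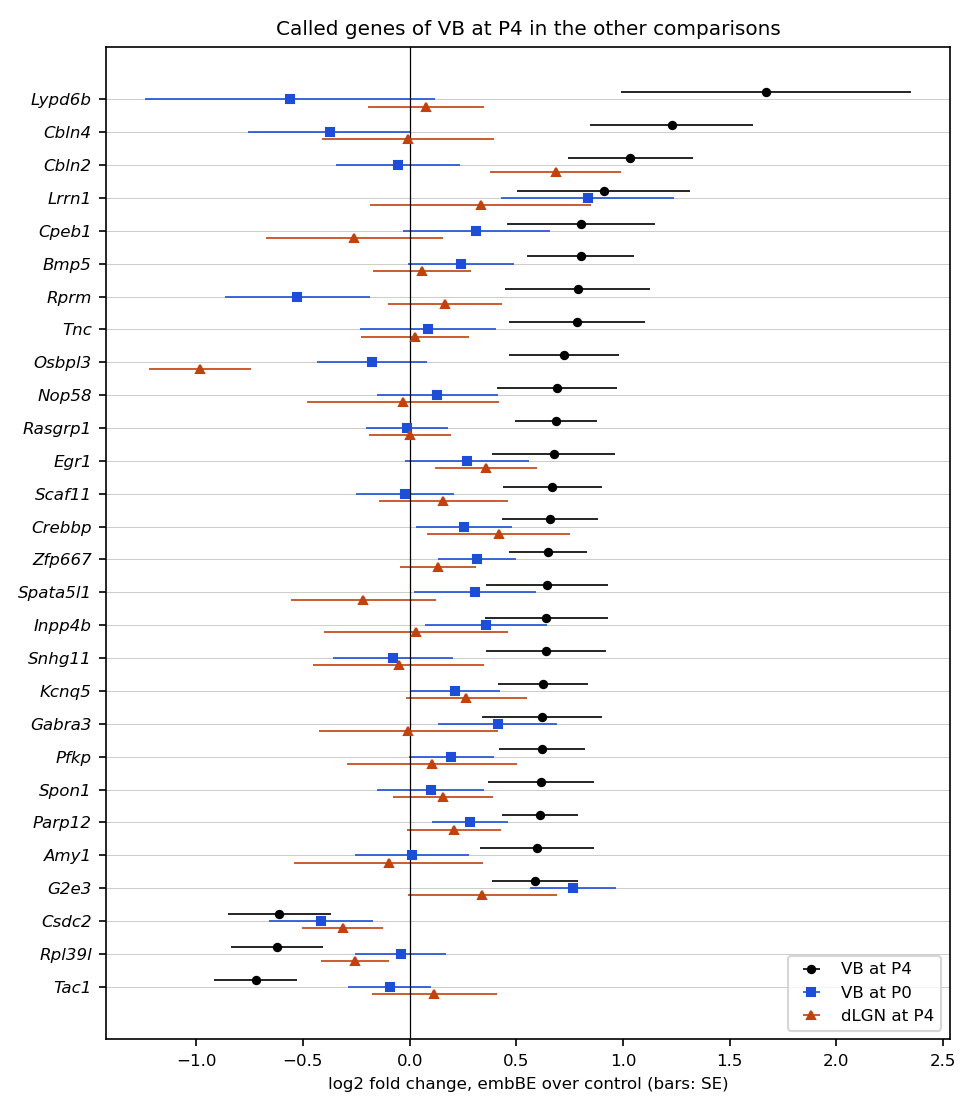
Log2 fold change of embBE over control (x axis, bars: SE) for the 28 named genes called in VB at P4, in VB at P4 (black), VB at P0 (blue) and dLGN at P4 (orange). Cbln4 lies at 1.23, -0.38 and -0.01, Osbpl3 at 0.72, -0.18 and -0.98, and G2e3 at 0.59, 0.77 and 0.34.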

How the data were processed

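RNA from microdissected nuclei was amplified and hybridized to Affymetrix mouse genome arrays. The authors deposited log2 signals per probe set, made by RMA with background correction, quantile normalization and median polish (its version is not given in the sources used here). Array files with depth or detection calls were not used here, and the number of arrays limits precision. Of 45101 probe sets, 64 controls were left out, 34958 had 1 gene symbol in the platform annotation, 932 had several and 9211 had none listed. For each of the 18194 genes the brightest probe set, by its mean across all 24 arrays, was kept.

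Groups came from the sample titles. A limma 3.58.1 fit (R 4.3.3) of 4 group means took all 12 VB arrays, so that P0 and P4 shared an estimate of the spread. The difference between nuclei was fitted over all 24 arrays, those of P0 included, with both label numbers together as a random block. A gene was called at a fold change of at least 1.5 and an unadjusted p under 0.05, after the study's methods, which state no adjustment, and Benjamini-Hochberg adjusted p are over all genes. All p-values are two-sided. The script was tested on simulated data. Figures were drawn with Python 3.11.15 and matplotlib 3.10.9.

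The named genes were the called genes other than unnamed clones, and the cerebellins and their receptors. List members that were called or had the lowest p under 0.05 (at most 4 a list) were also named. So were, per direction, the 10 genes whose smallest difference within numbers was largest and the 5 genes on either side of the fold threshold. A fixed set of relay and sex-linked genes was added. The last were the 4 genes per direction with the largest called differences between ages and between nuclei. Defining markers, tachykinin receptors and genes that stood out on single arrays were named beside this rule after their values were seen. The members and the 41 lists (708 measured genes, and 72 entries not analysed here) were chosen with earlier results of these data known. Alternatives were other fits, scalings, covariates, probe set rules and leaving out each array, and, chosen after seeing the data, leaving out both arrays of number 36. Promoter windows came from RefSeq on GRCm38.p6.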

Additional observations from a re-analysis of the deposited data

Results flagged for a closer look

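These results stand here because the embBE effect in VB at P4 differed from that at P0 in VB, or from that in the dLGN at P4, at the fold and unadjusted p threshold in a test of the difference itself. The genes were first picked by their call in VB at P4, and that effect is part of both differences. Between ages (P4 minus P0, log2), the differences were 1.60 for Cbln4, 1.09 for Cbln2, 2.23 for Lypd6b, 1.31 for Rprm, 0.90 for Osbpl3, 0.70 for Rasgrp1 and -0.63 for Tac1. Cbln4 and Rprm kept the call in all 14 alternatives run for it, and Tac1 lost it in 9 of the 14. Between nuclei (VB minus dLGN, log2), they were 1.70 for Osbpl3, 0.68 for Rasgrp1 and -0.84 for Tac1. Osbpl3 kept the call in all 15 alternatives, between 1.34 and 1.96, and Tac1 lost it in 8 of the 15. No limma p adjusted over all genes was under 0.05 for either difference.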

How the results depend on the processing

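No gene had an adjusted p under 0.05 in limma or in the methods' t-test under any alternative. Against 29 called genes, the t-test on the 6 arrays called 6, the Xist level as a covariate 18, the spread (SD) of each array as a covariate 16, the mean of all probe sets 15 and every probe set on its own 94 (of 45037). Leaving out 1 array gave 12 (control 36_3) to 209 (control 24_2), with 119 without control 40_1, 55 without embBE 36_2, 48 without embBE 24_4 and 45 without embBE 40_3. The share of higher calls was 89.7% in the report, 77.8% with Xist, 62.5% with the array SD and 77.4% with linear means. Array weights, whose fit did not fully converge, gave 0.156 to control 36_3 and 30 calls, of which 10 were among the 29. Of the calls with the array SD 5 were among them, and of those with Xist 11. The cause of these shifts was not tested. Over all settings, the 28 named called genes gave 611 values, of which 237 lost the call and 0 changed sign. Of 902 list medians 56 moved by more than the spread. Genes with differences of 1 sign within all 3 numbers numbered 5298, and from 8092 to 11498 with a number left out, as fewer differences have to share a sign. The count of 63 for the difference between ages ran from 49 (without embBE 36_2) to 201 (without P0 control 35_2), with 155 without control 36_3, and that of 87 between nuclei from 45 (without VB control 36_3) to 661 (without dLGN control 40_1), with 241 without VB control 40_1, 176 without VB control 24_2, 162 without dLGN embBE 24_4 and 50 without dLGN control 24_2.

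The signs of some uncalled genes turned. With the Xist level as a covariate Eif2s3y was at -0.043 and Tcf7l2 at 0.027. With the array SD Rora was at -0.0015, Slc6a4 at -0.089, Cck at -0.11, Nrxn3 at -0.14 and Tcf7l2 at 0.15. With array weights Tcf7l2 was at 0.066 and Nrxn2 at 0.038. With quantile normalization Nrxn3 was at -0.013 and Grid1 at -0.016, and with cyclic loess Grid1 was at -0.014. With the mean of all probe sets Nrxn3 was at -0.019, Grid1 at -0.12 and Kdm5d at 0.30. Without number 36 Eif2s3y was at -0.11, Cbln1 at -0.34, Slc6a4 at -0.039, Cck at -0.061 and Tcf7l2 at 0.19. With 1 array left out, the values ran from -0.069 to 2.68 (Eif2s3y), -0.44 to 0.78 (Cbln1), -0.029 to 0.35 (Uty), -0.050 to 0.38 (Slc6a4), -0.0024 to 0.19 (Cck), -0.052 to 0.23 (Nrxn3), -0.0053 to 0.19 (Grid1), -0.18 to 0.076 (Tcf7l2) and -0.35 to 0.021 (Nrxn2).

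The deviations of the embBE and the control array of a number correlated at -0.20 (24), -0.05 (36) and 0.22 (40) over genes, so the numbers were not taken to pair the arrays. With the first label number as a fixed replicate block 25 genes were called, and as a random block 26. The fixed block of the first number gave 100 in place of 63 for the difference between ages. For the nuclei, both label numbers together as a fixed block gave 95, and the fit without a block gave 92.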

Other observations

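With both arrays of number 36 left out, a choice made after seeing the data, 36 genes were called in VB at P4 that were not called with all arrays, and no limma p adjusted over all genes was under 0.05. Among the higher ones were cell adhesion genes, Cdh1 (1.48) and Cdh8 (0.63), the transcription factor gene Egr2 (0.79), the prostaglandin receptor gene Ptger4 (1.07) and the axonal motor gene Kif1b (0.74). Among the lower ones were Nts, the precursor of neurotensin (-0.71), and Fbxo32, a subunit of a ubiquitin ligase (-0.89). The left-out embBE 36_2 went the other way in several of them. It lay below all controls in Cdh1, in Egr2 (5.45 against 5.82 to 6.44) and in Kif1b (12.08 against 12.37 to 12.44). In Fbxo32 it lay above them (7.99 against 7.24 to 7.76). In Cdh8, Ptger4 and Nts it lay within the range of the controls. These genes were named after their values were seen.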
